A study of Sus scrofa with 48 samples.

Results

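The citric acid cycle enzymes examined here in pig subcutaneous adipose tissue (SCAT) were citrate synthase (CS), the isocitrate dehydrogenases IDH2, IDH3A and IDH3B, 2-oxoglutarate dehydrogenase (OGDH), the succinyl-CoA synthetase subunits SUCLG1 and SUCLA2, fumarate hydratase (FH) and mitochondrial malate dehydrogenase (MDH2). Probes were taken as members when the gene name or accession in the array files gave one of these 9 symbols and when the array software marked the spot as well above background for 9 or more of the 12 pigs in any group. The rule found 33 probes among the 60305 distinct probes of the array. Of these, 32 belonged to 7 of the genes, and all 32 were among the 44356 probes kept. CS had 8 probes, IDH2 had 6, IDH3A had 6, IDH3B had 4, MDH2 had 4, and SUCLG1 and SUCLA2 had 2 each. No probe was found for OGDH. The probe that the files name FH carried an accession of a gene that is not a member. It was therefore left out, and FH has no value below.

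The study asked how the source of dietary energy and selection for feed efficiency alter gene expression in adipose tissue. Male castrated Large White pigs came from lines selected in opposite directions for residual feed intake (RFI), the part of feed intake that growth and body composition do not account for, and pigs of the low RFI line eat less than their performance predicts. They had free access to a high fat, high fiber diet (HF), in which rapeseed and soybean oils and wheat straw replaced part of the starch, or to a low fat, low fiber diet rich in starch (LF), and both diets were balanced for energy and protein. Each of the 4 combinations of diet and line held 12 pigs, aged 132 days per the labels, with 1 array per pig. Each line is a single selected population, so that selection and any other difference between the 2 populations cannot be told apart.

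The citric acid cycle oxidizes acetyl-CoA in the mitochondrial matrix and passes the electrons to the respiratory chain. CS joins acetyl-CoA and oxaloacetate to citrate, the isocitrate dehydrogenases and 2-oxoglutarate dehydrogenase release carbon dioxide, succinyl-CoA synthetase forms a nucleoside triphosphate directly, and FH and MDH2 regenerate oxaloacetate. In adipose tissue citrate also leaves the mitochondrion, and the cytosolic acetyl-CoA made from it is the carbon source of fatty acid synthesis. Succinyl-CoA synthetase pairs the alpha subunit SUCLG1 with either SUCLA2, the beta subunit of the ATP-forming enzyme, or SUCLG2, that of the GTP-forming enzyme.

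The array reads each transcript through DNA probes of 60 bases. The SUCLA2 probe O7955 is shown because the line difference described below was measured by it, and both SUCLG1-named probes are shown because they gave different results and because O9218 may lie on the opposite strand. The CS probes A_72_P537441 and A_72_P124631 are shown as a pair because they share a 58-base window of the transcript in which they differ at 3 bases, marked by capitals, and they are an example of how probes of a gene overlap. Sequences are those of the array files, written 5′ to 3′. The files list no genome position for them.
SUCLA2 O7955: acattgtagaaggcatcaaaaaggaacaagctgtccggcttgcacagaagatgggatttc
SUCLG1 A_72_P035951: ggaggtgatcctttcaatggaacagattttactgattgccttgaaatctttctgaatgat
SUCLG1 O9218: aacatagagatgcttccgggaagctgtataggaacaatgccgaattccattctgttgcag
CS A_72_P537441: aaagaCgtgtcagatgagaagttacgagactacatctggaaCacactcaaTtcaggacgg
CS A_72_P124631: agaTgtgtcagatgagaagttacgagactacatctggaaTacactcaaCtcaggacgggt

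The 32 probes were not 32 independent readings. They held 29 distinct sequences and fell into 19 separate stretches of transcript, namely 4 for CS, 4 for IDH2, 2 for IDH3A, 3 for IDH3B, 2 for MDH2, 2 for SUCLA2 and 2 for SUCLG1. Probes of overlapping sequence varied together over the 48 arrays, with r of 0.94 or more for each such pair, though their levels could differ.

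Levels are given on a log2 scale, as the background-subtracted signal relative to the median of all kept probes on the same array, so that 0 is that median and 1 unit is a doubling. Between 62.2% and 81.9% of the probes of an array were well above background, and no spot was saturated. All 32 probes were well above background on all 12 arrays of each group, except SUCLG1 O9218, for which this held on 11 arrays of low RFI and 6 of high RFI pigs on the HF diet, and on 10 and 12 on the LF diet. The 48 arrays lay on 6 slides, with 2 arrays of each group on a slide, and were scanned on 2 dates with 24 arrays each. Of the 32 probes, 30 were lower on the second date than on the first, with differences from -0.36 to 0.14 and a median of -0.26. The 11 adipocyte marker genes measured had a mean level between 7.29 and 7.86 on all arrays. Skeletal muscle markers, with 13 of 15 genes measured, had a mean level between -1.63 and -0.81 in HF high RFI pigs, between -1.50 and 0.78 in HF low RFI pigs, between -1.46 and 0.77 in LF low RFI pigs and between -1.47 and 1.31 in LF high RFI pigs, and 3 arrays lay above 0.

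Between lines, SUCLA2 was the only one of these enzymes called. A probe was called differentially expressed (DEP) when it passed the 3 cut-offs of the study, namely 1.1 for the fold change, 0.01 for the unadjusted p and 0.08 for the p after Benjamini-Hochberg adjustment. The p-values came from a limma model of all 48 arrays and were adjusted over all 44356 kept probes. Of the 32 probes, 2 were called by line, both of SUCLA2 and both higher in low RFI pigs. Over all kept probes 1.37% were called by line, 0.809% as higher and 0.557% as lower in low RFI pigs. In whole tissue, fewer cells of a type and less RNA per cell cannot be told apart, which holds for each result below.

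At the SUCLA2 probe A_72_P176116, levels had a lowest, median and highest value of 4.99, 5.58 and 6.20 in HF low RFI pigs and of 4.79, 5.06 and 5.74 in HF high RFI pigs. On the LF diet low RFI pigs had 4.56, 5.76 and 6.08, and high RFI pigs had 4.24, 5.34 and 5.62. The groups overlapped, but 21 of 24 low RFI arrays lay above the mean of the high RFI arrays, and 13 of 24 lay above the highest high RFI array. Low RFI pigs averaged 5.66 ± 0.39 and high RFI pigs 5.19 ± 0.36 (SD, n = 24 each), a difference of 0.47 (SE 0.106, 95% confidence interval 0.25 to 0.68, limma adjusted p = 0.0162) or 1.38-fold.

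The other SUCLA2 probe, O7955, read a separate stretch and gave values that correlated with those of the first at r = 0.88 over 48 arrays. Its lowest, median and highest levels were -0.13, 0.81 and 1.62 in HF low RFI pigs, -0.38, 0.19 and 1.01 in HF high RFI pigs, -0.43, 0.85 and 1.45 in LF low RFI pigs, and -0.71, 0.54 and 0.85 in LF high RFI pigs. Here too 21 of 24 low RFI arrays lay above the high RFI mean, and 7 of 24 lay above the highest high RFI array. The difference was 0.57 (SE 0.132, 95% confidence interval 0.30 to 0.84, limma adjusted p = 0.0199), which is 1.48-fold.

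**Figure D1:**
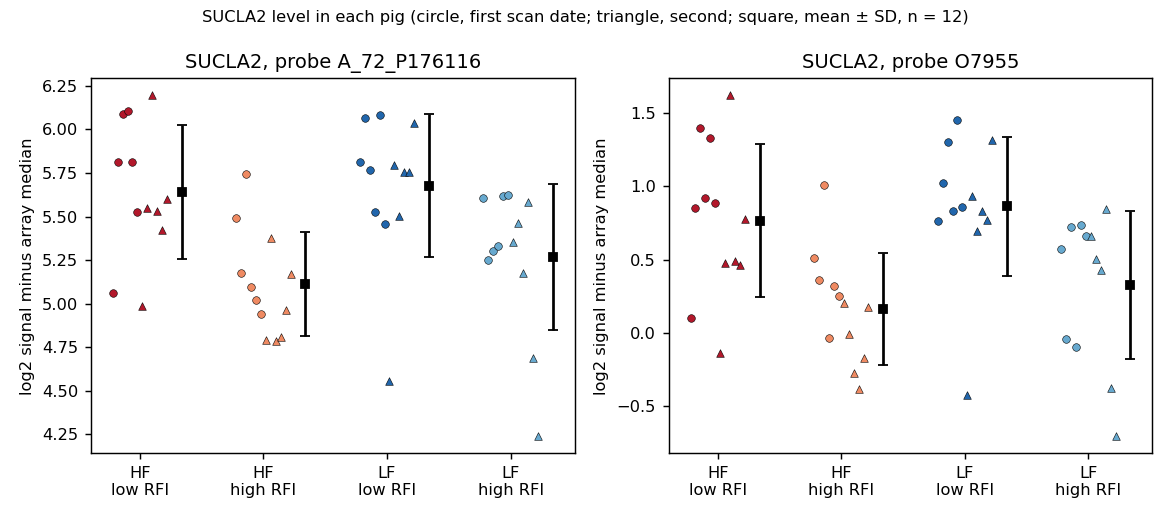
Level of SUCLA2 in each pig at its 2 probes, as log2 signal minus the array median on the y axis, by diet and line group on the x axis. Circles are arrays of the first scan date and triangles of the second, and squares with bars are the mean ± SD of 12 pigs. On both diets the low RFI mean lies above the high RFI mean, with overlap between the pigs.

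The SUCLA2 difference had the same sign on both diets. It was 0.53 within HF pigs and 0.41 within LF pigs at A_72_P176116, and 0.60 and 0.54 at O7955, but none of these values was called (limma adjusted p from 0.335 to 0.532). Over all probes only 0.0113% were called by line within HF pigs and 0.0338% within LF pigs, and no other probe of the cycle enzymes was. The diet by line interaction at SUCLA2 was 0.12 and 0.07 for the respective probes, with unadjusted limma p of 0.572 and 0.804. Low RFI pigs were higher at both probes on 5 of 6 slides, with slide differences from -0.02 to 0.94 at A_72_P176116 and from -0.13 to 1.1 at O7955. Within the first scan date the differences were 0.41 (limma adjusted p = 0.108) and 0.56 (limma adjusted p = 0.0774), and within the second 0.52 (limma adjusted p = 0.595) and 0.57 (limma adjusted p = 0.626). With the position of the array on its slide as a block, A_72_P176116 remained called at 0.45 (limma adjusted p = 0.0696) and O7955 did not at 0.51 (limma adjusted p = 0.0938).

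Markers of cell types also had line estimates that lay mostly on one side of 0 within each list. Over all kept probes 43.0% of line estimates were below 0. Of the adipocyte probes 36 of 50 were above 0 with a median of 0.10. Of these 50, 2 were called, both of 1 gene and both higher in low RFI pigs, beside 0.809% of all probes called higher. Of the skeletal muscle probes 40 of 55 were above 0 with a median of 0.11, and of the macrophage probes 20 of 25 were below 0 with a median of -0.13, with 0 called in either list. Blood vessel endothelial probes had 12 of 18 above 0 with a median of 0.05. Red cell probes had 4 of 5 below 0 with a median of -0.06, and 0 were called in either list. Without the 3 arrays whose muscle markers lay above the array median, a choice made after seeing the data, the SUCLA2 line difference was 0.45 at A_72_P176116 (limma adjusted p = 0.0338) and 0.56 at O7955 (limma adjusted p = 0.0358), and both probes remained called. The part of the cell type markers in this difference was not tested.

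No other of the 7 genes was called by line. The line estimates ran from 0.00 to 0.05 for CS, from -0.05 to -0.01 for IDH2, from -0.01 to 0.02 for IDH3B, from 0.05 to 0.07 for MDH2 and from -0.16 to 0.03 for IDH3A, and the estimate was 0.03 for SUCLG1 at A_72_P035951. None is given for the other SUCLG1-named probe, O9218, which was not well above background on 6 of 12 HF high RFI arrays. SUCLG2, which takes the place of SUCLA2 in the GTP-forming enzyme, had a line difference of 0.14 at each of its 3 probes (limma adjusted p from 0.561 to 0.645). Whether SUCLA2 differed more between lines than these genes was not tested. The median line difference of the 32 probes was 0.02 beside 0.01 over all kept probes, and its sign depended on the scan date, with 29 of 32 estimates below 0 on the first date and 29 of 32 above 0 on the second.

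By diet, most estimates of these enzymes lay on the same side of 0, but none passed the cut-offs. None of the 32 probes was called by diet, against 13.1% of all kept probes (7.44% as lower and 5.61% as higher on the HF diet). Without adjustment, 8 of the 32 probes had a limma p under 0.05, as did 25.5% of all kept probes, a share no lower than that of the members, and a two-way analysis of variance likewise called 0 and gave 7 with a p under 0.05. Under the other settings this count ran from 0 to 14. It was 11 within the first scan date and 0 within the second (18.8% and 16.2% of all probes), 14 with array weights and 13 with the array median as a covariate (31.9% and 31.2%), 2 with either of the other scalings described next (25.1% and 25.2%), and 0 with the array position as a block (21.3%). With array weights 9 of the 32 were called (of CS, IDH3A, IDH3B and MDH2, and O9218) and with the array median as a covariate 6 (all of IDH3A), all lower on the HF diet, where 17.6% and 16.6% of all probes were called. The HF minus LF estimate was below 0 for 30 of the 32 probes with a median of -0.13, while over all kept probes 55.8% were below 0 with a median of -0.02. With arrays scaled to their 75th percentile 25 of the 32 estimates were below 0, with a median of -0.09, and with quantile normalization 24 were, with a median of -0.08. These probes share arrays and, in part, sequence, so that the count describes 7 genes and not 32 independent results. Of all 5790 probes called by diet, 57% were lower on the HF diet, and this share was 32.8% of 5737 after scaling to the 75th percentile and 49.5% of 5521 after quantile normalization.

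**Figure D2:**
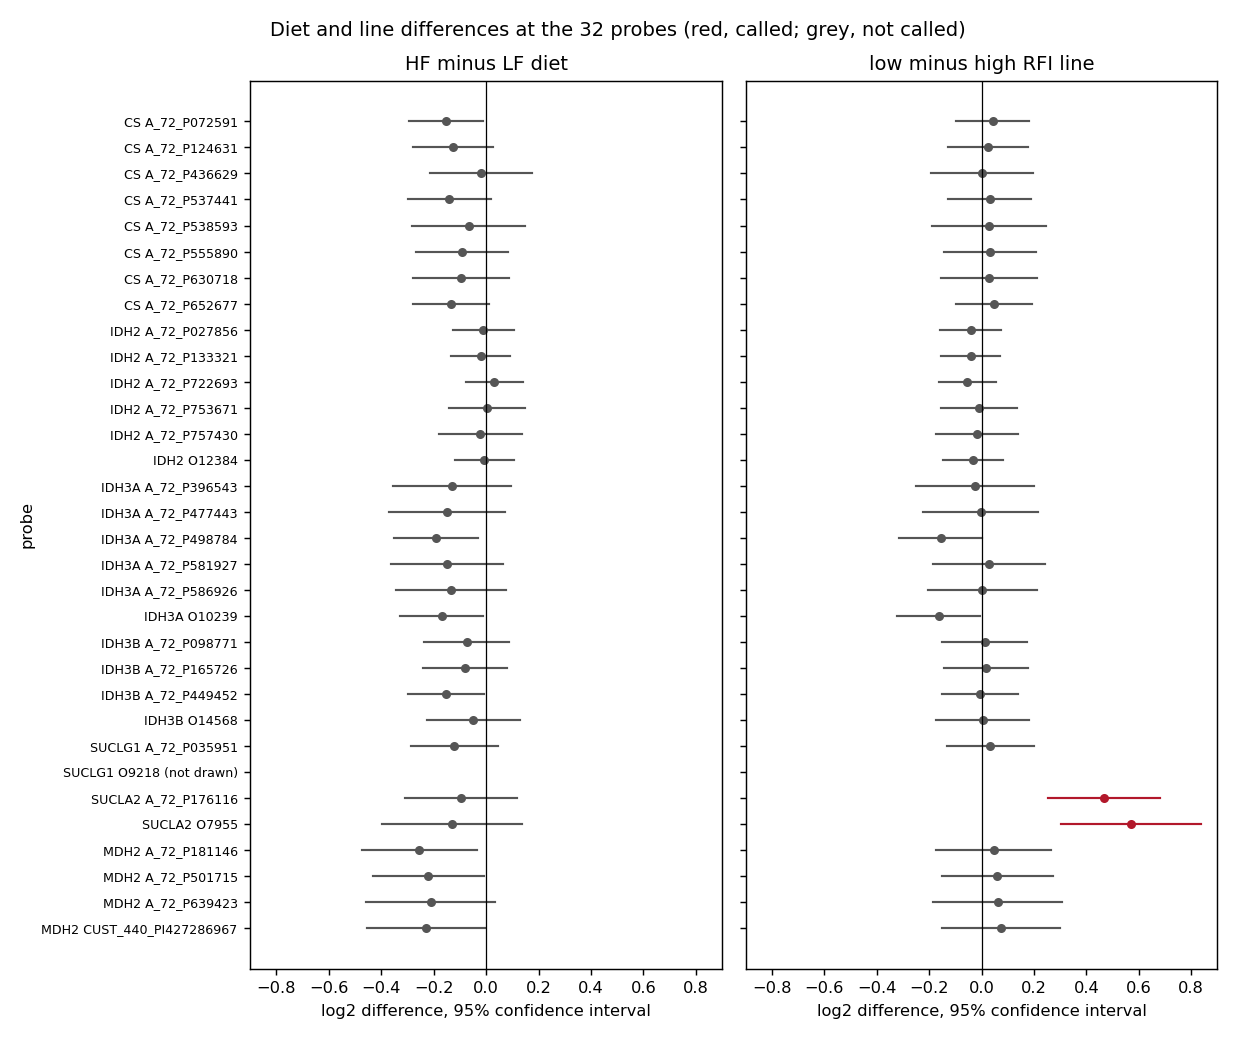
Differences in log2 level at 31 of the 32 probes with 95% confidence intervals (O9218, not well above background on 6 of 12 HF high RFI arrays, is not drawn), for HF minus LF diet (left) and low minus high RFI line (right), on the same x axis scale. Red marks probes called by the cut-offs of the study, which are the 2 SUCLA2 probes in the line comparison; the only 2 diet estimates above 0 are of IDH2, and no diet estimate is called.

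At the first step, CS was not called by diet. The probe with the highest mean signal, A_72_P072591, had lowest, median and highest values of 6.91, 7.19 and 7.41 in HF low RFI pigs, 6.66, 7.23 and 7.56 in HF high RFI pigs, 6.57, 7.37 and 7.59 in LF low RFI pigs, and 6.87, 7.33 and 7.58 in LF high RFI pigs. The groups overlapped over most of their range, and 19 of 24 LF arrays lay above the HF mean. The HF minus LF difference was -0.15 (SE 0.070, 95% confidence interval -0.29 to -0.01, limma adjusted p = 0.152). The 8 CS probes ranged from -0.15 to -0.02 (limma adjusted p from 0.152 to 0.930), and the pair of near-identical probes shown above gave -0.14 and -0.13.

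The isocitrate dehydrogenases differed in their estimates. IDH2, the NADP-dependent mitochondrial enzyme, had the diet estimate nearest to 0 of the 7 genes when each was taken as the mean of its probes. At A_72_P027856 its lowest, median and highest levels were 4.41, 4.77 and 5.12 in HF low RFI pigs, 4.53, 4.85 and 5.19 in HF high RFI pigs, 4.53, 4.83 and 5.24 in LF low RFI pigs, and 4.51, 4.82 and 5.20 in LF high RFI pigs. All groups covered the same range. The difference was -0.01 (SE 0.058, limma adjusted p = 0.930), and its 95% confidence interval of -0.13 to 0.11 bounds the size of a diet difference at this probe. The 6 IDH2 probes ranged from -0.02 to 0.03, and they held the only 2 diet estimates of the 32 above 0.

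IDH3A and IDH3B are the catalytic and a regulatory subunit of the NAD-dependent enzyme. IDH3B at A_72_P449452 averaged 4.84 ± 0.26 in HF low RFI, 4.81 ± 0.20 in HF high RFI, 4.96 ± 0.28 in LF low RFI and 5.0 ± 0.27 in LF high RFI pigs (SD, n = 12 each), a diet difference of -0.15 (limma adjusted p = 0.170). The other 3 IDH3B probes lay between -0.08 and -0.05, and none of the 4 was called.

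The 6 IDH3A probes gave diet estimates from -0.19 to -0.13 (limma adjusted p from 0.110 to 0.497), but they were of 2 kinds. The probes A_72_P498784 and O10239 read a first stretch and the other 4 a second one. Within a stretch r was 0.95 to 0.99 over the 48 arrays, and between the stretches it was 0.49 to 0.59. The first pair also shared 44 and 41 bases with A_72_P352168, a probe named for TBC1D2B, and correlated with it at r of 0.96 and 0.98, so that the transcript this pair reads is not settled here. A_72_P498784 had lowest, median and highest levels of 2.94, 3.39 and 3.88 in HF low RFI pigs, 3.13, 3.40 and 4.27 in HF high RFI pigs, 3.31, 3.57 and 3.75 in LF low RFI pigs, and 3.47, 3.76 and 4.26 in LF high RFI pigs. It was higher on the LF diet in the medians of both lines, with a difference of -0.19 for HF minus LF (SE 0.079, 95% confidence interval -0.35 to -0.03, limma adjusted p = 0.110). With the slide, which held 2 arrays of each group, as a block the same difference was called (limma adjusted p = 0.0532), as it was with array weights (-0.22, limma adjusted p = 0.0432). With the array median as a covariate all 6 IDH3A probes were called, with estimates from -0.30 to -0.24 (limma adjusted p from 0.0117 to 0.0316). The pair had line estimates of -0.16 at each probe (limma adjusted p of 0.496 and 0.451), where the 4 probes of the second stretch had estimates from -0.02 to 0.03.

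Among the IDH2 probes, A_72_P722693 correlated with the other 5 IDH2 probes at r of only 0.04 to 0.31, but its diet estimate of 0.03 and its line estimate of -0.05 were also near 0. For CS every pair of probes reached r of 0.80, and for MDH2 every pair reached 0.96.

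MDH2, which closes the cycle by oxidizing malate to oxaloacetate, had the diet estimate farthest from 0 of the 7 genes when each was taken as the mean of its probes (-0.23, limma adjusted p = 0.185). At A_72_P181146 its lowest, median and highest levels were 4.0, 4.30 and 5.08 in HF low RFI pigs, 3.66, 4.26 and 4.98 in HF high RFI pigs, 3.44, 4.70 and 4.88 in LF low RFI pigs, and 3.60, 4.74 and 5.04 in LF high RFI pigs. Most LF pigs were above most HF pigs, with 19 of 24 LF arrays above the HF mean, while the lowest values of each line belonged to LF pigs. The difference was -0.25 (SE 0.109, 95% confidence interval -0.47 to -0.04, unadjusted p = 0.0237, limma adjusted p = 0.125), or 1.19-fold lower on the HF diet, and it was below 0 on 5 of 6 slides. All 4 MDH2 probes gave estimates from -0.25 to -0.21. Leaving out the 3 arrays whose muscle markers lay above the array median, a choice made after seeing the data, gave -0.31 at A_72_P181146 (limma adjusted p = 0.0536) and -0.29 at CUST_440_PI427286967 (limma adjusted p = 0.0787), and both were then called.

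**Figure D3:**
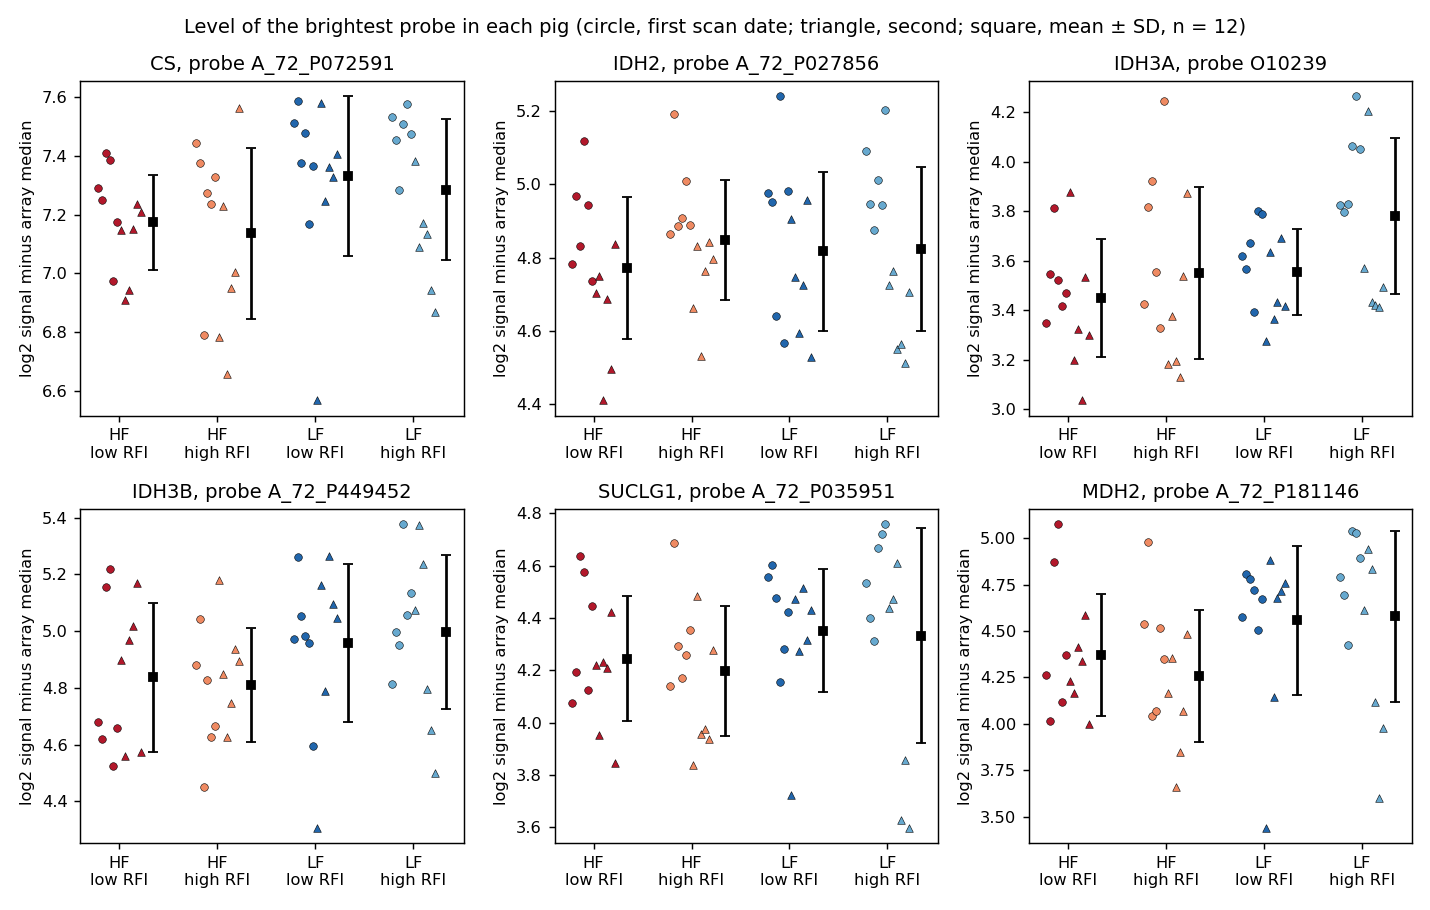
Level in each pig of the probe with the highest mean signal for CS, IDH2, IDH3A, IDH3B, SUCLG1 and MDH2, as log2 signal minus the array median on the y axes (scales differ between panels), by diet and line group on the x axes. Circles are the first scan date, triangles the second, and squares with bars the mean ± SD of 12 pigs. IDH2 covers the same range in all groups, and MDH2 has 19 of 24 LF arrays above the HF mean.

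Within low RFI pigs no member probe was called by diet (3.04% of all probes were), and within high RFI pigs 1 of 32 was (1.66% of all probes were, 0.996% as lower). That probe was O9218, which the files name SUCLG1 but whose strand is in doubt, as described below. Its lowest, median and highest levels were -3.86, -3.33 and -2.98 in HF low RFI pigs, -4.45, -3.98 and -3.32 in HF high RFI pigs, -4.31, -3.59 and -2.91 in LF low RFI pigs, and -3.78, -3.45 and -2.87 in LF high RFI pigs. In HF high RFI pigs 6 of 12 arrays did not rise well above background, and the probe was kept through the other groups, so that the levels of that group and the size of any difference from it are not well measured. Within high RFI pigs it passed the filter only through the LF group, so that the call is given as a description, without a size or a p. For the diet by line interaction no probe of the 44356 was called with limma (0%), and 462 (1.04%) had an unadjusted p under 0.05. The only member probe among these was O9218, whose interaction rests on the same poorly measured group and is not read as a result.

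The other SUCLG1 probe, A_72_P035951, was not called within high RFI pigs. It averaged 4.24 ± 0.24 in HF low RFI, 4.20 ± 0.25 in HF high RFI, 4.35 ± 0.24 in LF low RFI and 4.33 ± 0.41 in LF high RFI pigs (SD, n = 12 each), with a diet difference of -0.13 within high RFI pigs (limma adjusted p = 0.657) and of -0.12 over both lines (limma adjusted p = 0.373). The values of the 2 SUCLG1 probes correlated at r = 0.23 over the 48 arrays. The letters of O9218 look like the reverse complement of SUCLG1 coding sequence, so that the probe may lie on the opposite strand and may not measure SUCLG1 mRNA. This was not settled, since no reference transcript was used here. The call at O9218 was made under 8 of 16 other settings. Each of these fits used the same poorly measured HF high RFI group, so that the count adds no weight to the call.

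**Figure D4:**
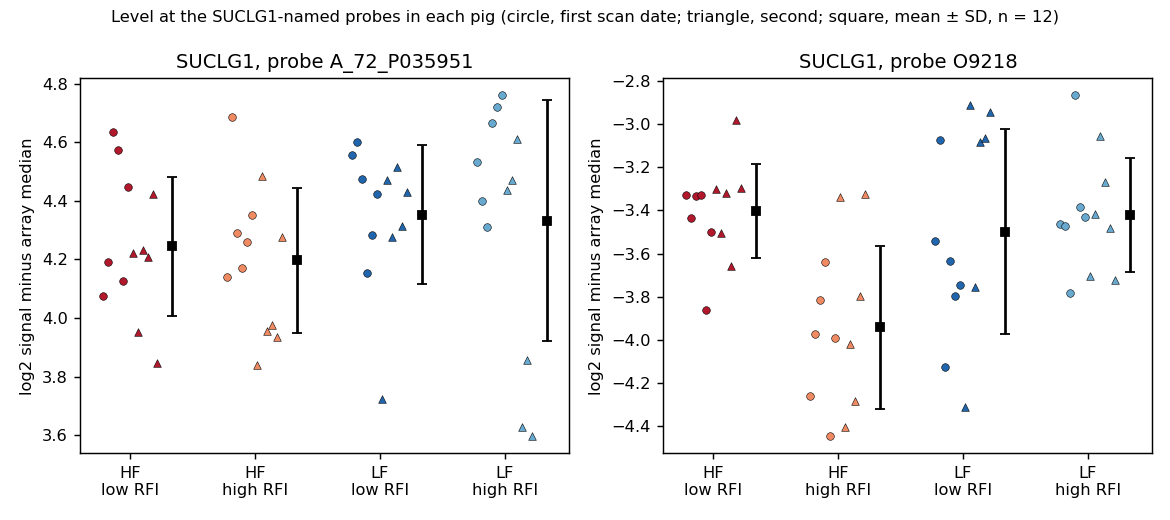
Level in each pig at the 2 probes named SUCLG1, of which O9218 may lie on the opposite strand, as log2 signal minus the array median on the y axes (scales differ), by diet and line group on the x axis. Circles are the first scan date, triangles the second, and squares with bars the mean ± SD of 12 pigs. At O9218 only 6 of 12 HF high RFI arrays were well above background, so that the mean of that group (-3.94) is not an exact level. At A_72_P035951 the group means lie between 4.20 and 4.35.

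The enzymes varied together from pig to pig. With each gene at its probe of highest mean signal and each value taken as its deviation from the group mean, all 21 pairs of the 7 genes had a positive r over 48 arrays, from 0.01 for IDH2 with IDH3B to 0.84 for MDH2 with SUCLG1, with a median of 0.50. MDH2 also correlated with CS at r = 0.76 and with IDH3B at 0.75. SUCLA2 correlated with MDH2 at 0.61 and with SUCLG1 at 0.59, and with IDH2 at 0.17. These values share arrays, slides and scan dates, and are given as a description. IDH3A entered through O10239, of the pair whose transcript is not settled, so that its 6 correlations rest on that probe. The genes whose deviations were most like the mean of the enzymes, of 11573 ranked, were COQ6 (r = 0.95), a monooxygenase of coenzyme Q synthesis, APOO (0.94), a subunit of the mitochondrial cristae organizing complex, GHITM (0.94), an inner membrane protein, ATP5F1A (0.94), the alpha subunit of ATP synthase, and CYC1 (0.93), cytochrome c1 of complex III. The median r over all ranked genes was 0.04, and none of the 5 was called by diet.

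**Figure D5:**
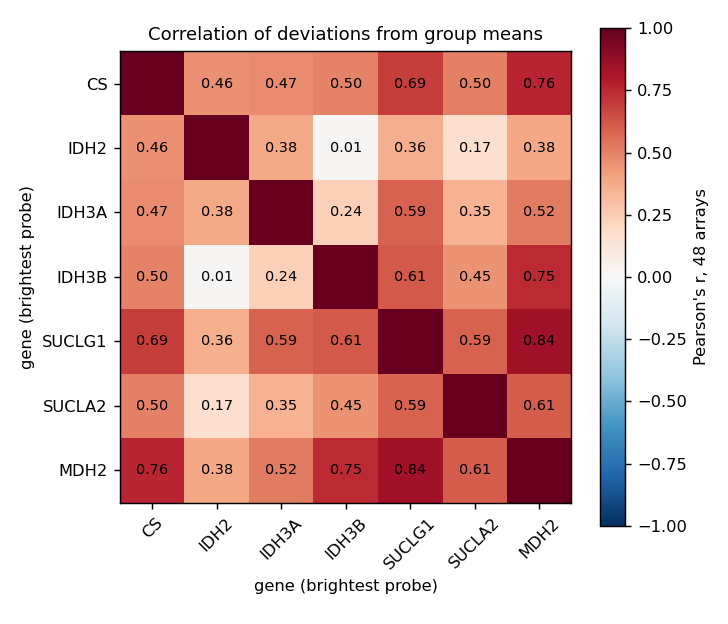
Pearson correlation over 48 arrays between the 7 genes, each at its probe of highest mean signal, after subtraction of the group means; the colour scale runs from -1 to 1. All pairs are positive, with IDH2 the least correlated with the others and MDH2 with SUCLG1 the most.

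The mean level of the 7 enzymes had medians of 4.89 in HF low RFI, 4.87 in HF high RFI, 5.10 in LF low RFI and 5.05 in LF high RFI pigs, with IDH3A again read by O10239. Within the first scan date its median was 4.91 in HF and 5.13 in LF pigs, and within the second 4.81 and 5.01. The ranges of the groups overlapped, with the lowest of all pigs at 4.40 in the LF low RFI group. Muscle markers also had lower medians in the HF groups (-1.27 and -1.38) than in the LF groups (-0.97 and -1.04), and 4 of their 55 probes were called by diet, all lower, beside 7.44% of all probes called lower. The adipocyte markers averaged 7.57 ± 0.14 and 7.54 ± 0.15 in the HF groups and 7.64 ± 0.14 and 7.62 ± 0.13 in the LF groups (SD, n = 12 each). Their part in the diet estimates of the enzymes was not tested beyond the left-out arrays above.

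Of 46 probes of 8 other genes of the cycle, 3 were called by diet, all lower on the HF diet, and 45 had an estimate below 0 with a median of -0.16, where 7.44% of all probes were called lower. The count depended on the setting. It was 0 with arrays scaled to the 75th percentile, with quantile normalization, with the array position as a block and within the second scan date (12.9%, 12.4%, 9.66% and 2.77% of all probes called), and 24 with the array median as a covariate (16.6%). Among the called probes was 1 of the iron-sulfur subunit SDHB of succinate dehydrogenase, at -0.19 (A_72_P178116, 5.08 ± 0.22 on HF and 5.27 ± 0.25 on LF, SD, n = 24 each, limma adjusted p = 0.0682). As means of their probes, DLD, the shared dihydrolipoamide dehydrogenase, differed by -0.21 (limma adjusted p = 0.0836 over 11580 genes) and was not called. SDHB differed by -0.17, SDHD by -0.16, SDHA by -0.11, DLST by -0.10, IDH3G by -0.10 and SUCLG2 by -0.01, none of them called. By line none of the 46 probes was called.

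Several genes of neighbouring pathways were called by diet. Of 32 probes of the pyruvate dehydrogenase complex and its kinases and phosphatases, which control the entry of pyruvate carbon, 11 were called lower and 6 called higher on the HF diet, with a median estimate of -0.09 over all 32. Those called lower included subunits DLAT (A_72_P468917, -0.45, limma adjusted p = 0.00261), PDHA1 (A_72_P513752, -0.30, limma adjusted p = 0.00931) and PDHB (O12377, -0.33, limma adjusted p = 0.0119), and all 6 called higher were of the inhibitory kinase PDK4. PDK1, another such kinase, was lower on the HF diet (A_72_P236277, -0.27, limma adjusted p = 0.00748) and was the only gene of this list called by line, at 2 probes, with a difference of 0.29 in favour of low RFI pigs at this probe (limma adjusted p = 0.0297).

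Of 55 probes of enzymes and carriers that feed or drain the cycle, 10 were called lower and 2 called higher on the HF diet, while 41 estimates lay below 0, with a median of -0.06. ME1, the cytosolic malic enzyme that makes NADPH, fell by 1.0 (A_72_P306288, limma adjusted p = 0.00816), ACLY, which splits citrate into cytosolic acetyl-CoA, fell by 0.75 (A_72_P710913, limma adjusted p = 0.00944), and pyruvate carboxylase PC fell by 0.25 (A_72_P479920, limma adjusted p = 0.0122). PCK2, the mitochondrial phosphoenolpyruvate carboxykinase, rose by 0.38 (A_72_P430259, limma adjusted p = 0.00155), and both probes called higher were its own.

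Among 72 probes of mitochondrial outer membrane, chaperone and biogenesis genes, 18 were called lower and 1 called higher on the HF diet, while 68 estimates lay below 0, with a median of -0.12. The porins VDAC1 (A_72_P574324, -0.43, limma adjusted p = 0.00108) and VDAC3 (O8784, -0.18, limma adjusted p = 0.010) and the import receptor TOMM20 (A_72_P584796, -0.18, limma adjusted p = 0.00456) were lower, and the coactivator PPARGC1A was the one called higher (A_72_P297579, 0.66, limma adjusted p = 0.0288). Of 139 probes of respiratory complexes I, III, IV and V, 16 were called lower and 0 called higher, 134 had estimates below 0, and the median was -0.12. Examples were COX6A1 of complex IV (A_72_P488336, -0.37, limma adjusted p = 0.00666) and UQCRQ of complex III (O535, -0.31, limma adjusted p = 0.0105). By line 1 of the 139 was called, a UQCRB probe of complex III that was lower in low RFI pigs (O2995, -0.50, limma adjusted p = 0.0242). By gene, the diet calls were of 5 of 9 genes in the pyruvate dehydrogenase list and 6 of 18 in the list that feeds or drains the cycle. They were of 6 of 12 in the mitochondrial list and 5 of 39 in the respiratory list. These counts hold for the main scaling only, and with 75th percentile scaling 1884 of all probes were called lower instead of 3301. The shares called in these lists, read against 13.1% over all probes, are descriptions, and no list was tested against other genes.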

How the data were processed

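Total RNA of SCAT from 48 pigs was amplified to Cy3-labelled cRNA, which the authors hybridized to a custom Agilent array of porcine probes. The deposited scanner files give spot intensity on a linear scale after Feature Extraction, and the processed signal is background-subtracted by that software. A second deposited file, made by the authors in R 2.10.0 per the labels, holds log2 levels of 38987 probes. These matched log2 of the median signal minus the array median within 4.87e-09 and were used as an alternative. Groups and replicate numbers came from the sample titles.

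Control spots were left out, 227 flagged spots were set to missing (none of a member probe), and probes well above background on 9 of 12 arrays of a group were kept. Values were log2 of the processed signal minus the array median over kept probes. Probe symbols came from the gene names and accessions in the files and a reference gene table. Diet, line, their interaction and the effects within each diet or line were fitted in limma 3.58.1 (R 4.3.3, eBayes with trend, two-sided, all 48 arrays), with Benjamini-Hochberg adjustment over the 44356 probes, or over 11580 genes for means of probes, and the study's cut-offs. The limma model was checked on simulated data drawn independently for each probe and array. The simulation held no slides, scan dates or shared variation of probes, so that it does not check the model under these features. The number of arrays limits the precision; labels do not say whether pigs shared a litter or pen.

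The member genes, the gene lists and the naming rule were chosen with earlier results of these data known. Every kept member probe was reported. Of the other lists each gene of the cycle and up to 4 genes with the smallest diet p were named, apart from results that are counted but not reported here. PDK4 and UQCRB were named after their values were seen. Alternatives were other scalings (75th percentile, quantile), backgrounds (normexp with offset 50, median signal), no filter, slide, scan date, array position or replicate number as blocks, each scan date alone, array weights, the array median as a covariate, means of probes, a two-way analysis of variance and, added later, 3 arrays left out.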

Additional observations from a re-analysis of the deposited data

How the results depend on the processing

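Under the 16 alternatives run on single probes, no value that was called in either fit changed its sign. Of the values of member probes by diet and line, 79 of 1024 changed sign without being called, 21 by diet (14 of IDH2, 5 of CS and 2 of IDH3B) and 58 by line, and those of SUCLA2 did not. The count of member probes called by diet, 0 in the report, was 9 with array weights (CS, IDH3A, IDH3B and MDH2 probes, and O9218), 6 with the array median as a covariate (all of IDH3A), 1 with the slide as a block (IDH3A A_72_P498784) and 2 without the 3 arrays of high muscle markers (MDH2), and it was 0 under the other settings. Over all probes 17.6%, 16.6%, 15.5% and 12.1% were called by diet under these 4 settings. The count by line, 2 in the report, was 1 with the array position as a block, 1 within the first scan date and 0 within the second, each date holding 24 of the 48 arrays. The single call by diet within high RFI pigs was 0 under array position, the 75th percentile, the authors' table, the median signal, normexp, no filter, and each scan date alone. The 3 calls by diet among the other cycle probes became 24 with the array median as a covariate, 17 with array weights, 8 without the 3 arrays, 7 with the slide and 7 with the scan date as a block, 5 within the first scan date, 5 with the replicate block, 1 without a filter, 1 by analysis of variance, and 0 with array position, the 75th percentile, quantile normalization and within the second scan date. The cause of these changes was not tested. At SUCLA2 the line difference ranged from 0.41 to 0.52 and from 0.50 to 0.62 over 16 other settings and was called in 14 of 16 at each probe.

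The labels do not say that a replicate number marks a shared litter, batch or day, and for this reason the numbers were not treated as pairs in the main fit. The numbers do follow the slides, with 2 numbers of every group on each of the 6 slides. Arrays of different groups with the same number varied together to some degree. Their median r was 0.16 (from -0.19 to 0.45, over 0.1 in 48 of 72 pairs), and that of different numbers was -0.02. Of the 48 arrays, 17 correlated best with an array of their own number. Whether this reflects the slides was not tested. With the replicate block, the calls of member probes were 0 by diet, 2 by line and 1 by diet within high RFI pigs (O9218, with the limit given above). Calls over all probes were 7124 by diet instead of 5790 and 1140 by line instead of 606.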

Other observations

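The following values were looked up after the SUCLA2 difference was seen. Of the 10 genes nearest to SUCLA2 in the Sscrofa11.1 gene table, 5 on each side, 6 had kept probes. None of their 53 probes was called by line, and their line differences ran from -0.21 to 0.11, all below those of SUCLA2.

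Probes whose names begin with O were compared with other probes of the same gene to see whether they read the same strand. Of 9532 such probes, 1292 shared at least 18 bases with another probe of their gene, and for 78 of these (6.04%) the shared bases were found only on the opposite strand. SUCLG1 O9218 shared no such stretch with the other SUCLG1 probe, so that this comparison gives no answer for it.

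The TBC1D2B-named probe A_72_P352168 that overlaps an IDH3A pair had a diet difference of -0.18 (limma adjusted p = 0.131) and a line difference of -0.15 (limma adjusted p = 0.489). In the Sscrofa11.1 gene table TBC1D2B is a near neighbour of IDH3A. Of the 10 genes nearest to IDH3A, 7 had kept probes, and 1 of their 18 probes was called by line, with differences from -0.38 to 0.27 over the 18. That probe, named after its value was seen, was of the gene next to IDH3A on the other side, ACSBG1, an acyl-CoA synthetase (A_72_P477438, -0.33, lower in low RFI pigs, limma adjusted p = 0.0494).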
